A study of Mus musculus with 19 samples.

Results

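The 9 genes described here, Lcn2, Serpina3n, C3, Ptx3, Timp1, Cd109, Steap4, Sbno2 and Gpld1, were taken as a set of reactive astrocyte genes, and their chromatin accessibility was followed through ATAC-seq. The first 8 are markers or regulators of the reactive state, while Gpld1 is enriched in astrocytes and was followed by the study as a gene of astrocyte maturation. Their peaks were chosen by position alone: every peak whose centre lay in the gene body, or within 20 kb of either end of the gene, was a member. This rule gave 57 of the 90154 peaks in the table. All 57 passed the filter on low reads that left 88919 peaks for testing. Sbno2 had 16 of them, Gpld1 11, Cd109 9, Serpina3n 6, Lcn2 5, C3 and Ptx3 4 each, and Timp1 and Steap4 1 each. There were 28 member peaks inside gene bodies, and 18 lay closer to an end of another gene than to either end of the member. Some of these 18 lie inside the body of Gpld1. Below, closer to a gene means closer to one of its ends, also where the peak lies inside another gene.

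The 19 libraries came from wild-type C57BL/6J mice. Neural stem cells of the embryonic day 14 ventricular zone were grown as neurospheres (NSPs, n = 3) and then moved to medium with 10% serum, in which they differentiate into astrocytes, for 24 h (n = 3), 72 h (n = 3) or 1 week (n = 4). At 24 h and 72 h a further group of 3 libraries each had received tumor necrosis factor (TNF) at 50 ng/ml, and the 1 week group had no TNF arm. The labels do not say which libraries came from separate cultures, so the p-values measure the spread between these libraries, which may in part be technical.

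Reactive astrocytes are astrocytes that have changed state after injury, infection or inflammation. The change involves induced secreted proteins, acute phase proteins, complement and protease inhibitors. TNF acts on these cells largely through NF-κB, and cytokines of the interleukin-6 family act through STAT3, while C/EBP and AP-1 factors take part in many acute phase responses. ATAC-seq marks open chromatin by the insertion of a transposase, so a peak reports how accessible a promoter or a distant regulatory region is, and not how much RNA is made.

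Accessibility is given as normalised reads in a peak, which are the authors' values. Each value was a whole number of reads multiplied by a factor of its library, so whole reads could be recovered. Reads in peaks ranged from 28636739 to 39349111 in NSPs and from 9640256 to 25165008 in the other groups. The mean level of a member peak over the 19 libraries ranged from 30.9 to 3408 normalised reads, with a median of 95.8 against 86.0 over all peaks. A single member peak had a library with 1 read. Changes are log2 fold changes of value + 1 with their standard error (SE), from limma fitted to all tested peaks, and "called" means a Benjamini-Hochberg adjusted p under 0.05 over all 88919 peaks. Distances are counted in the direction of transcription from the RefSeq start used in the promoter table, so a negative distance is upstream. For Serpina3n, Sbno2 and Gpld1 the RefSeq gene body begins further upstream than that start. For Cd109, which had no strand in the tables used here, distances run from the end with the lower coordinate. The peak nearest the start is called the start peak, also for Ptx3 and Gpld1, where it does not cover the start.

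A tag is part of the library names of the 72 h, 72 h TNF and 1 week groups, 10 in all. It is absent from the names of the other 9 libraries, those of NSPs and of both 24 h groups. There were 212 peaks with at most 3 reads in each tagged library and at least 20 in each untagged one, and 0 of them were member peaks. Comparisons of 72 h or 1 week with NSPs, and of 72 h with 24 h, cross this tag, and the tag and the time cannot be told apart in them. The TNF comparisons, 24 h against NSPs and 1 week against 72 h stay within a tag.

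The identity of the cells was checked at peaks within 1 kb of a gene end. Of 8 astrocyte genes 7 had such a peak, and their sum overlapped between NSPs and the untreated groups, at 2080 to 2722 normalised reads in NSPs, 1951 to 2300 at 24 h, 2256 to 2479 at 72 h and 2123 to 2248 at 1 week, and it was 1743 to 1845 and 1956 to 2009 at 24 h and 72 h with TNF. The members did not move together: the mean of Gfap, the astrocyte filament protein, was 108 in NSPs, 489 at 24 h, 529 at 72 h and 258 at 1 week, and 369 and 246 with TNF. From NSPs to 24 h the means of Slc1a3 (251 to 189), Slc1a2 (319 to 241), Sox9 (875 to 596) and S100b (562 to 372) were lower, and those of Aldh1l1 (89.3 to 91.5) and Gja1 (91.8 to 114.5) were not. The summed level of 3 of 5 neural progenitor genes ranged from 3487 to 3962 in NSPs and from 1289 to 2155 in the other groups, and Hes5, a Notch target of neural progenitors, had the widest range, from 1976 in NSPs to 93.0 at 1 week. The other two, Sox2 (1258 in NSPs and 1280 at 1 week) and Nes (435 and 471), had means at 1 week that were not below those in NSPs. Of 10 microglia genes 3 had a peak, P2ry12, Tmem119 and Spi1, and their sum overlapped between the groups, at 317 to 401 in NSPs, 335 to 350 at 24 h, 307 to 345 at 24 h with TNF, 327 to 386 at 72 h, 341 to 415 at 72 h with TNF and 288 to 351 at 1 week. Neuron genes (4 of 6 with a peak, sums of 1306 to 2038), oligodendrocyte genes (2 of 5, 95.6 to 152.0) and an endothelial gene (1 of 5, 138 to 256) were also accessible. In bulk samples, fewer cells of a type and less accessibility per cell cannot be told apart.

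The promoters shown here are those whose start lay inside a member peak, because accessibility was measured over these letters. Promoter entries were found for 8 of the 9 members in the RefSeq table of GRCm38.p6, and Cd109 was the member with none. Each line gives the 250 bases before a start, 5′ to 3′ on the strand of the gene. Capitals mark matches on either strand to 4 patterns: an NF-κB pattern of GGG, any 3 bases and TTCC, the AP-1 pattern TGANTCA, the STAT pattern TTCNNNGAA and the C/EBP pattern TTGCNNAA. Lcn2, C3 and Steap4 come first, as their start peaks rose with TNF, then Serpina3n and Timp1, whose start peaks were not called with TNF, then both Sbno2 starts, of which only the inner one had a TNF call.
Lcn2 (chr2:32387740-32387989, minus strand): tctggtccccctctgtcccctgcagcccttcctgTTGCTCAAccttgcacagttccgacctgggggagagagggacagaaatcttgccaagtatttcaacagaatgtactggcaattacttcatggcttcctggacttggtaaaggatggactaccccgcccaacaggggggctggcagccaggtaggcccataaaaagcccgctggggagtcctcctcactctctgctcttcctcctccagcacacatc
C3 (chr17:57228137-57228386, minus strand): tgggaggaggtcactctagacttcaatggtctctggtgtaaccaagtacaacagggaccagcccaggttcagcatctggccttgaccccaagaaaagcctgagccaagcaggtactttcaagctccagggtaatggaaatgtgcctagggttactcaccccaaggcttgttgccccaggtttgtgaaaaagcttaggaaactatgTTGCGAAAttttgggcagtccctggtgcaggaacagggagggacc
Steap4 (chr5:7960222-7960471, plus strand): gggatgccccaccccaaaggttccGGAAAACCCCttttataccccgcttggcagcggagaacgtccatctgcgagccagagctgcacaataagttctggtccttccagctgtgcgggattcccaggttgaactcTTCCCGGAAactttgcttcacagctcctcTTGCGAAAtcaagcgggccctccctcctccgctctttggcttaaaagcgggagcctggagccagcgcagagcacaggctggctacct
Serpina3n (chr12:104406458-104406707, plus strand): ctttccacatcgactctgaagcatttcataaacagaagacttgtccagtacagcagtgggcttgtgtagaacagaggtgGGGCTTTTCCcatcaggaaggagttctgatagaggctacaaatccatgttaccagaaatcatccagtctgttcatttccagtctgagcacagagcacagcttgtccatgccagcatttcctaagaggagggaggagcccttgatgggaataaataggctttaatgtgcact
Timp1 (chrX:20869916-20870165, plus strand): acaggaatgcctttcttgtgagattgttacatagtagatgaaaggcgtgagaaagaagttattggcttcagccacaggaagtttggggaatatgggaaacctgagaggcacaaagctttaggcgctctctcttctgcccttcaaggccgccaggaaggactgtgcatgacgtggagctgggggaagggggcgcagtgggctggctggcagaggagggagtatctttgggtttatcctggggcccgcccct
Sbno2, outer start (chr10:80102703-80102952, minus strand): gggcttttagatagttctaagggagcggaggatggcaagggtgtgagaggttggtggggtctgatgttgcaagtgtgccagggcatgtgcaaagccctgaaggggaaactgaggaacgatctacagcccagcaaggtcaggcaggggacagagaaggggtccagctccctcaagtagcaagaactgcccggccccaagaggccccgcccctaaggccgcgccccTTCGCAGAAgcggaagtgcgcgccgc
Sbno2, inner start (chr10:80075440-80075689, minus strand): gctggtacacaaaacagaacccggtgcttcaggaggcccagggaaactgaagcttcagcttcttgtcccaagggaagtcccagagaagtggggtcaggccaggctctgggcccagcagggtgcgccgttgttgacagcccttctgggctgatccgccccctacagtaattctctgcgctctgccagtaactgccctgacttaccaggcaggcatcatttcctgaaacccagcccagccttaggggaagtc

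The C/EBP pattern stood in the windows of Lcn2 (bases -216 to -209 from the start), C3 (-45 to -38) and Steap4 (-87 to -80), and C3 and Steap4 had the same 8 letters, TTGCGAAA. It was present in 9.57% of the 32817 promoter windows of this length in the table. Steap4 also held an NF-κB pattern (-226 to -217) and a STAT pattern (-116 to -108), and Serpina3n held an NF-κB pattern (-171 to -162). The NF-κB pattern was found in 4.65% of all windows and the STAT pattern in 7.01%. The outer Sbno2 start had a STAT pattern (-26 to -18), the inner Sbno2 window and the Timp1 window had none of the 4, and no member window held the AP-1 pattern, which 6.75% of all windows held. A match is a description of the letters and not a bound site. The windows of Ptx3 (C/EBP, -57 to -50), Gpld1 (C/EBP, -74 to -67) and the middle Sbno2 start (STAT, -24 to -16) are not printed, as their starts lay outside the peaks.

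With TNF for 24 h, 17 of the 57 member peaks were called higher (in counts of peaks, rose) and 2 were called lower (fell). These are 29.8% and 3.51% of the members, while 7.06% of all tested peaks rose and 3.53% fell. With TNF for 72 h, 12 member peaks rose (21.1%) and 3 fell (5.26%), and over all peaks the shares were 6.24% and 5.55%. The median change of the members was 0.09 at 24 h and 0.15 at 72 h on the log2 scale, against -0.03 and 0.03 over all peaks. The 3 treated libraries lay above the 3 untreated ones without overlap in 21 member peaks at 24 h, where 15.2% of all peaks did so, and in 17 at 72 h, where 17.6% of all peaks did. They lay below without overlap in 7 member peaks at 24 h and 6 at 72 h, where 14.4% and 15.3% of all peaks did. The 12 peaks that rose at 72 h had also risen at 24 h, and they belonged to 7 genes: Lcn2, Serpina3n, C3, Ptx3, Cd109, Steap4 and Sbno2. Over all peaks, 3.65% rose at both times.

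**Figure D1:**
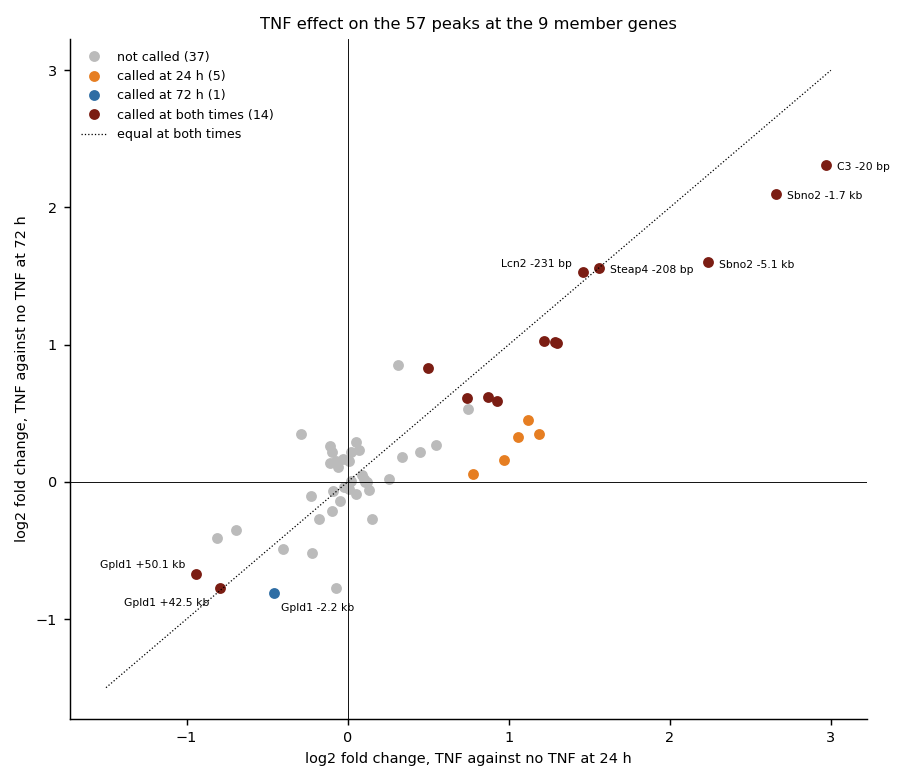
Log2 fold change with TNF at 24 h (horizontal axis) and at 72 h (vertical axis) for the 57 member peaks, coloured by call at an adjusted p under 0.05. C3 -20 bp and the Sbno2 peaks at -1.7 kb and -5.1 kb lie furthest to the upper right, and 3 Gpld1 peaks lie at the lower left.

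Of the 39 member peaks closer to an end of the member than to an end of any other gene, 14 rose at 24 h (35.9%) and 11 at 72 h (28.2%). Of the 18 closer to another gene, 3 rose at 24 h (16.7%) and 1 at 72 h (5.56%). Over all peaks 7.06% rose at 24 h and 6.24% at 72 h. This split was made after the data were seen. The 5 peaks called higher at 24 h and not at 72 h were Lcn2 +7.5 kb, C3 +8.7 kb, Ptx3 +20.8 kb, Sbno2 +15.6 kb and Gpld1 +34.9 kb. A call at one time alone does not show that the effect differed, and the difference between the TNF effects at 72 h and 24 h was tested directly. By limma 0 of the 57 member peaks were called for it, where 0.00112% of all peaks were, and 4 member peaks had an unadjusted p under 0.05, where 7.51% of all peaks had one. By edgeR 0 were called and 5 had an unadjusted p under 0.05, and by DESeq2 these numbers were 0 and 4.

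C3 encodes the central component of complement and is widely used as a marker of neurotoxic reactive astrocytes. Its start peak (chr17:57227906-57228406) held 12.5, 4.43 and 16.0 normalised reads in the 24 h libraries and 71.6, 83.0 and 97.6 with TNF. At 72 h it held 45.0, 49.0 and 48.4 reads without TNF and 259, 234 and 226 with TNF. The treated libraries lay above the untreated ones at both times, with a log2 fold change of 2.97 ± 0.36 (SE, limma adjusted p = 1.42e-06) at 24 h and 2.31 ± 0.36 (adjusted p = 5.12e-05) at 72 h. These were the widest TNF effects among the 57 member peaks at either time. The untreated 24 h libraries held 11, 3 and 13 reads before scaling, and the 24 h change ranged from 2.48 to 3.3 under the alternative fits. That of Sbno2 -1.7 kb ranged from 2.45 to 2.86. In NSPs the C3 start peak held 9.93, 3.77 and 7.31 reads, and at 1 week 28.2, 28.8, 28.6 and 19.3. The order of the groups was NSP, 24 h, 1 week, 72 h, 24 h with TNF and 72 h with TNF, and of these neighbours only NSP and 24 h overlapped.

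Around C3, the peak at +8.7 kb in the gene body held 25.0, 26.6 and 41.9 reads at 24 h and 68.1, 76.5 and 50.9 with TNF, a log2 fold change of 1.06 ± 0.27 (limma adjusted p = 0.00944). At 72 h its groups overlapped, with means of 65.2 ± 21.7 and 78.9 ± 3.64 (SD, n = 3), and the change of 0.33 was not called. The 24 h call was lost when 24 h replicate 1 (0.92) or 24 h TNF replicate 2 (0.93) was left out. The peak at -3.6 kb, which lies closer to Trip10, rose with TNF by 0.50 ± 0.15 at 24 h (adjusted p = 0.0261) and by 0.83 ± 0.15 at 72 h (adjusted p = 0.000323). Leaving out any of the 24 h libraries but TNF replicate 3 ended its 24 h call, at changes of 0.46 to 0.51. The peak at -19.7 kb, at the ends of Gpr108 and Trip10, held means from 2511 at 72 h to 4231 at 1 week and had no TNF call.

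Lcn2 encodes lipocalin-2, a secreted protein that binds bacterial siderophores and is among the most strongly induced reactive astrocyte genes. Its start peak (chr2:32387720-32388220) held 29.6, 11.8 and 28.3 reads at 24 h and 64.6, 63.6 and 55.0 with TNF. At 72 h the values were 27.0, 33.5 and 38.2 without and 105, 79.8 and 106 with TNF. No treated library fell within the untreated range at either time. The log2 fold change was 1.46 ± 0.42 (limma adjusted p = 0.0224) at 24 h and 1.53 ± 0.42 (adjusted p = 0.0151) at 72 h. Both calls were close to the threshold. Among the fits that left out 1 library, the 24 h call was lost without 24 h replicate 2 (1.05) or without TNF replicate 1 (1.41), 2 (1.43) or 3 (1.53), and the 72 h call without 72 h replicate 1 (1.40) or without TNF replicate 1 (1.47) or 3 (1.46). The 72 h call was also lost with the number in the library name as a block (1.40). In NSPs the peak held 13.4, 7.54 and 3.32 reads and at 1 week 12.3, 9.35, 22.0 and 26.8. The NSP, 1 week, 24 h and 72 h groups overlapped with their neighbours in that order, and both TNF groups stood above them. Each untreated group was still called higher than NSPs. The widest rise was that of 72 h (2.05 ± 0.42, limma adjusted p = 0.000125), whose libraries did not overlap with NSPs. Smaller rises were called for 24 h (1.48 ± 0.42, adjusted p = 0.00478) and 1 week (1.09 ± 0.39, adjusted p = 0.016), with libraries that overlapped with NSPs. The 72 h and 1 week rises cross the library name tag.

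The other 4 Lcn2 peaks lie closer to other genes. The peak at +7.5 kb, within 1110008P14Rik, rose at 24 h from 100.2, 92.9 and 94.8 reads to 157, 181 and 158 with TNF, by 0.78 ± 0.19 (limma adjusted p = 0.00624). At 72 h its change was 0.06 ± 0.19 and the groups overlapped. The unadjusted p for the difference between these effects was 0.0114 and the adjusted p 0.549. The peaks at +5.7 kb and -8.4 kb had TNF changes between -0.05 and 0.15, and neither was called.

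Steap4 encodes a metalloreductase of the plasma membrane and is counted among the pan-reactive astrocyte genes. The member rule found only 1 peak for it, at the start (chr5:7960014-7960514). It held 26.2, 25.1 and 25.9 reads at 24 h and 86.7, 72.2 and 75.8 with TNF, and 43.8, 27.5 and 37.0 at 72 h and 93.9, 106 and 120.0 with TNF. The treated libraries were above the untreated ones at both times, and the log2 fold change was 1.56 ± 0.29 at each (limma adjusted p = 0.000471 and 0.000489). In NSPs it held 19.9, 13.7 and 21.3 reads. At 1 week it held 22.0, 13.2, 22.0 and 18.2 reads, which overlapped with NSPs and lay below the 72 h libraries, and the fall of 0.90 ± 0.27 from 72 h to 1 week was called (adjusted p = 0.00973), though not after a loess correction (-0.59).

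**Figure D2:**
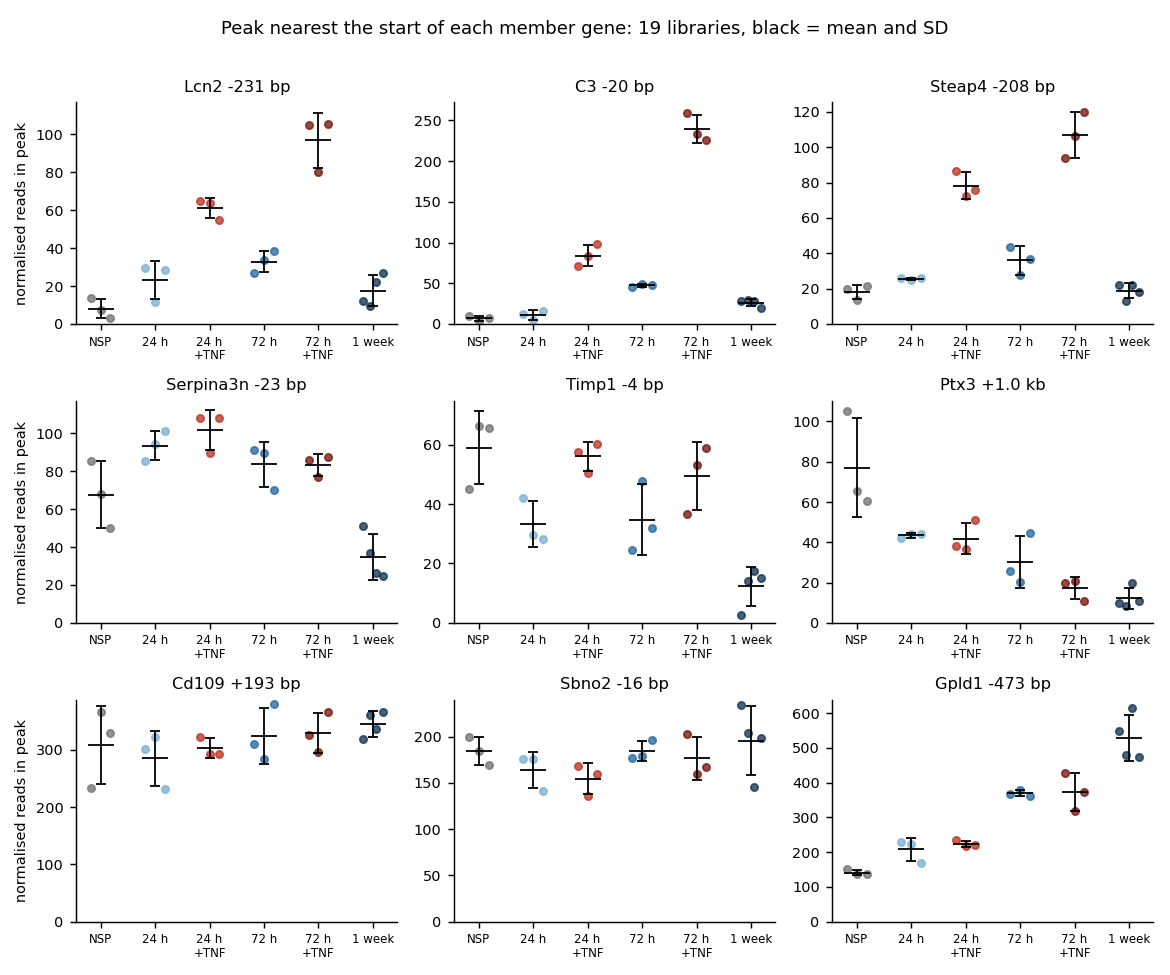
Normalised reads in the peak nearest the start of each member gene (for Cd109, the end with the lower coordinate) in the 6 groups, with 1 point for each library and the mean with its SD in black. The TNF groups of Lcn2, C3 and Steap4 stand above all other groups, those of the other 6 genes overlap with other groups, and Gpld1 increases from NSPs to 1 week.

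Serpina3n encodes a secreted serine protease inhibitor and acute phase protein that marks reactive astrocytes in many settings. Its start peak (chr12:104406435-104406935) held 85.4, 94.4 and 101 reads at 24 h and 108, 89.4 and 108 with TNF. Untreated 72 h libraries held 91.4, 89.7 and 70.1 reads and 85.8, 76.9 and 87.6 with TNF. The groups overlapped at both times, and the changes of 0.12 ± 0.25 and 0.00 ± 0.25 were not called. At 1 week the peak held 51.1, 36.6, 26.4 and 24.7 reads, below each 72 h library, and the difference from 72 h was -1.30 ± 0.23 (limma adjusted p = 7.94e-05).

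The TNF call at Serpina3n lay beyond the end of the gene, at +9.1 kb (chr12:104415549-104416049). This peak held 297, 298 and 288 reads at 24 h and 727, 823 and 644 with TNF. At 72 h it held 241, 287 and 301 reads without and 549.8, 572 and 545 with TNF. The groups were far apart, with log2 fold changes of 1.30 ± 0.15 (limma adjusted p = 9.85e-07) and 1.01 ± 0.15 (adjusted p = 3.83e-05). Without TNF the same peak was lower after differentiation than in NSPs, where it held 363, 554 and 543 reads, with a change of -0.70 ± 0.15 at 24 h (adjusted p = 0.00043). The 24 h TNF libraries lay above the NSP libraries, and the 72 h TNF libraries overlapped with them. The peak at +7.4 kb, inside the gene, had TNF changes of -0.69 ± 0.29 and -0.35 ± 0.29, neither called. Its TNF libraries still lay below the untreated ones, at 34.3 to 47.4 against 61.6 to 82.6 reads at 24 h. At 72 h they held 26.6 to 37.2 against 39.5 to 45.9 reads. The mean of this peak was 106 reads in NSPs, 69.7 at 24 h, 42.2 at 72 h and 17.4 in the 1 week libraries. The peak at +24.9 kb held 9.35 to 14.0 reads in NSPs and 47.2 to 56.9 at 24 h, a rise of 2.02 ± 0.32 (adjusted p = 8.05e-06), with no TNF call. The peak at +16.1 kb, chosen for mention after its values were seen, held 67.8, 173 and 219 reads in NSPs, 55.8 to 66.5 at 24 h, 25.7 to 37.0 at 72 h and 6.23 to 13.2 at 1 week. No groups overlapped in this order. Its change from NSPs was -1.13 ± 0.40 at 24 h (adjusted p = 0.0201) and -3.65 ± 0.37 at 1 week (adjusted p = 7.69e-10), the latter across the library name tag, and neither TNF change (0.09 and 0.05) was called.

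Ptx3 encodes pentraxin 3, a soluble pattern recognition molecule listed among the A2 astrocyte genes. No peak covered its start, and the nearest, at +1.0 kb inside the gene and inside Veph1, held 42.1, 44.3 and 44.3 reads at 24 h and 38.0, 36.6 and 50.9 with TNF. After 72 h it held 25.7, 20.3 and 44.6 reads and 19.7, 20.7 and 10.8 with TNF. The groups overlapped, and the changes of -0.07 ± 0.36 and -0.77 ± 0.36 were not called (limma adjusted p = 0.944 and 0.187). The level was 60.5 to 105 reads in NSPs and 8.57 to 19.8 at 1 week, and the difference of -1.24 ± 0.34 between 1 week and 72 h was called (adjusted p = 0.0051), though not after a loess correction (-0.80).

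The peak at -10.8 kb (chr3:66208787-66209287) held 76.3, 62.0 and 93.6 reads at 24 h and 156, 167 and 221 with TNF. At 72 h it held 47.6, 44.3 and 63.7 reads and 122, 75.4 and 127 with TNF. The groups did not overlap, with changes of 1.22 ± 0.32 (limma adjusted p = 0.011) and 1.03 ± 0.32 (adjusted p = 0.0326). The 24 h call was lost without 24 h replicate 2 (1.08) or TNF replicate 3 (1.07). Among the fits that left out 1 library, the 72 h call was lost without 72 h replicate 1 (0.97) or 2 (0.92) and without TNF replicate 1 (0.92) or 3 (0.89), and among the scalings under total reads (0.95). With the number in the library name as a block it was lost as well (0.78).

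The Ptx3 peak at +20.8 kb rose with TNF at 24 h, from 30.7, 36.9 and 25.9 reads to 71.6, 59.3 and 74.8, by 1.12 ± 0.29 (limma adjusted p = 0.0115). That call was lost without 24 h replicate 3 (1.00) or TNF replicate 3 (1.05). At 72 h the change of 0.45 ± 0.29 was not called. The peak at -3.9 kb followed differentiation: NSPs held 7.59, 3.77 and 0.664 reads, the last of them 1 read before scaling, and the 24 h libraries 49.0, 41.3 and 51.7. The rise of 3.56 ± 0.36 (adjusted p = 3.21e-09) was the widest of the 57 member peaks between NSPs and 24 h, and with 1 read in a library its size depends on the pseudocount. At 1 week this peak held 104 to 135 reads, and its TNF changes of 0.31 and 0.85 were not called.

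Timp1 encodes a secreted inhibitor of matrix metalloproteinases that astrocytes produce on inflammation. It had a single member peak, at the start on the X chromosome and inside Syn1 (chrX:20869912-20870412). The peak held 42.1, 29.5 and 28.3 reads at 24 h and 57.5, 50.6 and 60.2 with TNF. The 72 h libraries held 24.4, 47.8 and 31.9 reads and 36.7, 53.2 and 58.8 with TNF. The groups stood apart at 24 h and overlapped at 72 h, and neither change, 0.75 ± 0.42 and 0.53 ± 0.42, was called (limma adjusted p = 0.307 and 0.477). The SE leaves a wide range of effects possible at this depth. In NSPs the peak held 45.0 to 66.4 reads, which overlapped with both TNF groups. The change from NSPs to 1 week was -2.39, called across the library name tag. At 1 week the peak held 2.65, 14.0, 17.6 and 15.0 reads, under each library of the other groups, and the difference from 72 h was -1.61 ± 0.40 (adjusted p = 0.00202).

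Cd109 encodes a glycosylphosphatidylinositol-anchored protein of the alpha-2-macroglobulin family and is on the A2 list. The peak at its lower-coordinate end (+193 bp) was the steadiest of the start peaks, with group means between 285 and 345 reads, and none of its 7 comparisons was called. The gene body held the TNF calls. The peak at +8.0 kb (chr9:78623254-78623754) held 209, 201 and 214 reads at 24 h and 465, 487 and 589 with TNF. At 72 h it held 256, 341 and 314 reads and 623, 636 and 575 with TNF. The groups were apart at both times, with changes of 1.29 ± 0.14 (limma adjusted p = 2.59e-07) and 1.02 ± 0.14 (adjusted p = 1.13e-05). Without TNF its mean increased in each step, from 167 ± 34.6 in NSPs to 208 ± 6.94 at 24 h, then 304 ± 43.3 at 72 h and 390.0 ± 14.9 at 1 week (SD, n = 3, 3, 3 and 4), and each step was called, the last of them (0.37 ± 0.13) not under scaling to total reads (0.03), TMM (0.26) or a loess correction (0.10). The 24 h TNF level was above the 1 week level.

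The Cd109 peak at +18.6 kb held 104, 92.9 and 102 reads at 24 h and 186, 183 and 181 with TNF, and 68.2, 80.1 and 65.0 at 72 h and 107, 115 and 107 with TNF. Its TNF changes were 0.87 ± 0.19 (limma adjusted p = 0.002) and 0.62 ± 0.19 (adjusted p = 0.0259). Among the scalings the 72 h call was lost under total reads (0.55), and among the fits that left out 1 library without 72 h replicate 1 (0.60) or 3 (0.56), or TNF replicate 1 (0.64), 2 (0.59) or 3 (0.64). The same call was lost with the number in the library name as a block (0.55). Without TNF the peak held 47.3 to 55.6 reads in NSPs and 92.9 to 104 at 24 h. At 1 week it held 53.0 to 77.2 reads, which overlapped with NSPs. The peak at +33.3 kb held 35.6 to 69.2 reads in NSPs and 80.8 to 116.5 at 24 h, a rise of 0.85 ± 0.26 (adjusted p = 0.00727), and it had no TNF call.

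Sbno2 encodes a transcriptional co-regulator downstream of STAT3 that is induced in astrocytes by inflammatory cytokines. At the outer start (-16 bp) the group means lay between 155 and 196 reads, and none of the 7 comparisons was called. Upstream of it, a pair of peaks rose with TNF. The peak at -1.7 kb (chr10:80104166-80104666) held 26.2, 19.2 and 34.5 reads at 24 h and 149, 172 and 186 with TNF. Untreated 72 h libraries held 57.9, 62.2 and 58.6 reads and 249, 266 and 264 with TNF. The treated groups stood clear of all untreated ones, with changes of 2.66 ± 0.36 (limma adjusted p = 8.93e-06) and 2.10 ± 0.36 (adjusted p = 0.00019).

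The Sbno2 peak at -5.1 kb (chr10:80107508-80108008) held 66.0, 60.5 and 97.3 reads at 24 h and 248, 372 and 456 with TNF. At 72 h it held 169.9, 157 and 187 reads and 525, 509.9 and 530.5 with TNF. The changes were 2.24 ± 0.20 (limma adjusted p = 7.91e-09) and 1.60 ± 0.20 (adjusted p = 1.93e-06). The unadjusted p for their difference was 0.0313 and the adjusted p 0.635. Both upstream peaks also rose on differentiation without TNF. The -5.1 kb peak held 18.8 to 20.6 reads in NSPs and was higher by 1.82 ± 0.20 at 24 h (adjusted p = 1.04e-08), and the -1.7 kb peak by 1.90 ± 0.36 (adjusted p = 7.91e-05). In both the order was NSP, 24 h, 72 h, 1 week, 24 h with TNF and 72 h with TNF, and of these neighbours only 72 h and 1 week overlapped.

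Within Sbno2, the peak at +27.2 kb (chr10:80075243-80075743) covers the inner annotated start. It held 348, 323 and 432 reads at 24 h and 626, 636 and 847 with TNF, and 534, 517 and 477 at 72 h and 695, 786 and 829 with TNF. The groups did not overlap at either time. The changes were 0.93 ± 0.17 (limma adjusted p = 0.000319) and 0.59 ± 0.17 (adjusted p = 0.0172). Among the scalings the 72 h call was lost under total reads and the loess correction (0.52 in both), and among the fits that left out 1 library without 72 h replicate 3 (0.55) or TNF replicate 2 (0.58) or 3 (0.54). It was also lost with the number in the library name as a block (0.47). The peak at +31.4 kb, chosen for mention after its values were seen, rose by 0.74 ± 0.14 and 0.61 ± 0.14 at the same times (adjusted p = 0.000712 and 0.00446). The peak at +15.6 kb rose with TNF at 24 h by 0.97 ± 0.20 (adjusted p = 0.00119), from 67.9 to 101 reads to 145 to 217, and not at 72 h, where the change was 0.16 ± 0.20. The unadjusted p for the difference of these effects was 0.00675, the smallest of the 4 member peaks under 0.05, and the adjusted p 0.508.

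**Figure D3:**
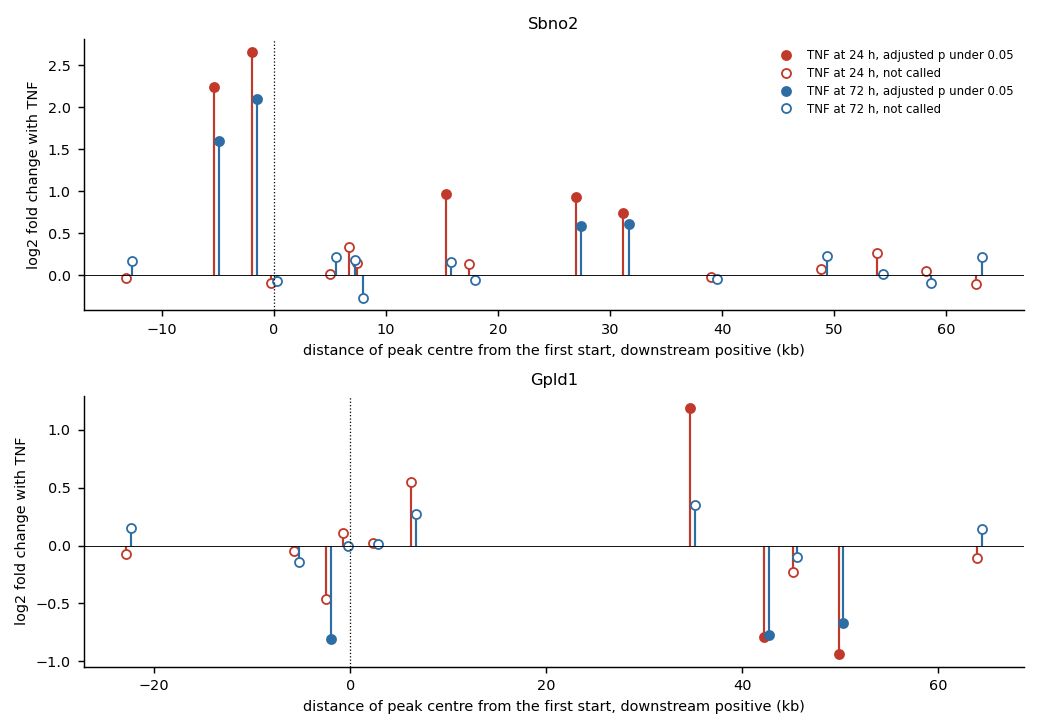
Log2 fold change with TNF at 24 h (red) and 72 h (blue) for each peak of Sbno2 (upper panel) and Gpld1 (lower panel), against the distance of the peak centre from the start in kb. Filled points have an adjusted p under 0.05. At Sbno2 the calls are positive and sit upstream of the start and from +15.6 to +31.4 kb, and at Gpld1 there are negative calls at -2.2, +42.5 and +50.1 kb.

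Gpld1 encodes a phospholipase D that cleaves glycosylphosphatidylinositol anchors, and it was the only member with peaks called lower with TNF. Uncalled TNF changes at 24 h reached -0.81 at Cd109 and -0.69 at Serpina3n. The peak at +50.1 kb (chr13:24992982-24993482) lies past the end of Gpld1 and inside Mrs2. It held 384, 364 and 363 reads at 24 h and 189, 203 and 188 with TNF. After 72 h it held 399, 377 and 460.1 reads and 234, 266 and 275 with TNF. No libraries overlapped, and the changes were -0.94 ± 0.17 (limma adjusted p = 0.000292) and -0.67 ± 0.17 (adjusted p = 0.0072). The 72 h call was lost without 72 h replicate 3 (-0.59). The peak at +42.5 kb, which lies inside Gpld1 but closer to an end of Mrs2, held 491, 516 and 347 reads at 24 h and 271, 259.6 and 242 with TNF, and 522, 384 and 532 at 72 h and 259, 302 and 272 with TNF. Its changes were -0.79 ± 0.15 and -0.77 ± 0.15 (adjusted p = 0.000477 and 0.000585).

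The Gpld1 peak at -2.2 kb held 228, 199.8 and 196 reads at 72 h and 155, 106 and 99.6 with TNF, a change of -0.81 ± 0.18 (limma adjusted p = 0.0036). At 24 h the values were 101, 105 and 109.6 without TNF and 76.0, 61.4 and 94.5 with it, and the change of -0.46 ± 0.18 was not called (adjusted p = 0.117). The start peak (-473 bp) did not follow: its means were 208 ± 33.1 and 223 ± 8.90 at 24 h and 369.7 ± 8.73 and 373 ± 55.2 at 72 h (SD, n = 3), and its changes of 0.11 ± 0.14 and 0.00 ± 0.14 were not called. The peak at +34.9 kb went the other way at 24 h, from 39.8 to 53.5 reads to 74.8 to 134, a change of 1.19 ± 0.33 (adjusted p = 0.0164). It lies outside the rule for named peaks and was chosen after its values were seen.

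Across differentiation the Gpld1 start peak increased in each step. It held 137 to 150.1 reads in NSPs, 170.0 to 230.0 at 24 h, 362 to 379 at 72 h and 474 to 614 at 1 week, and no neighbours in this order overlapped. The rise was 0.54 ± 0.14 from NSPs to 24 h (limma adjusted p = 0.00197) and 0.51 ± 0.13 from 72 h to 1 week (adjusted p = 0.00293), the latter not called under scaling to total reads (0.17) or a loess correction (0.28). The -2.2 kb peak was at 28.7 to 31.9 reads in NSPs and 101 to 109.6 at 24 h, and the +50.1 kb peak at 71.8 to 134 and 363 to 384. These peaks rose with differentiation by 1.74 ± 0.18 and 1.98 ± 0.17 (adjusted p = 6.81e-09 and 6.29e-11), and the TNF-treated libraries lay between the NSP and the untreated libraries at the same time. The +42.5 kb peak was highest in NSPs, at 536 to 662 reads, and both TNF groups were under all other groups. Inside the gene, the peak at +2.6 kb was lower at 24 h (262 to 347 reads) than in NSPs (374 to 519.9), by -0.50 ± 0.14 (adjusted p = 0.00419), though this was not called under scaling to total reads (-0.31). The peak at +6.5 kb rose from 29.8 to 41.0 reads in NSPs to 41.9 to 63.4 at 24 h, by 0.68 ± 0.22 (adjusted p = 0.0106), and neither of these peaks had a TNF call.

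**Figure D4:**
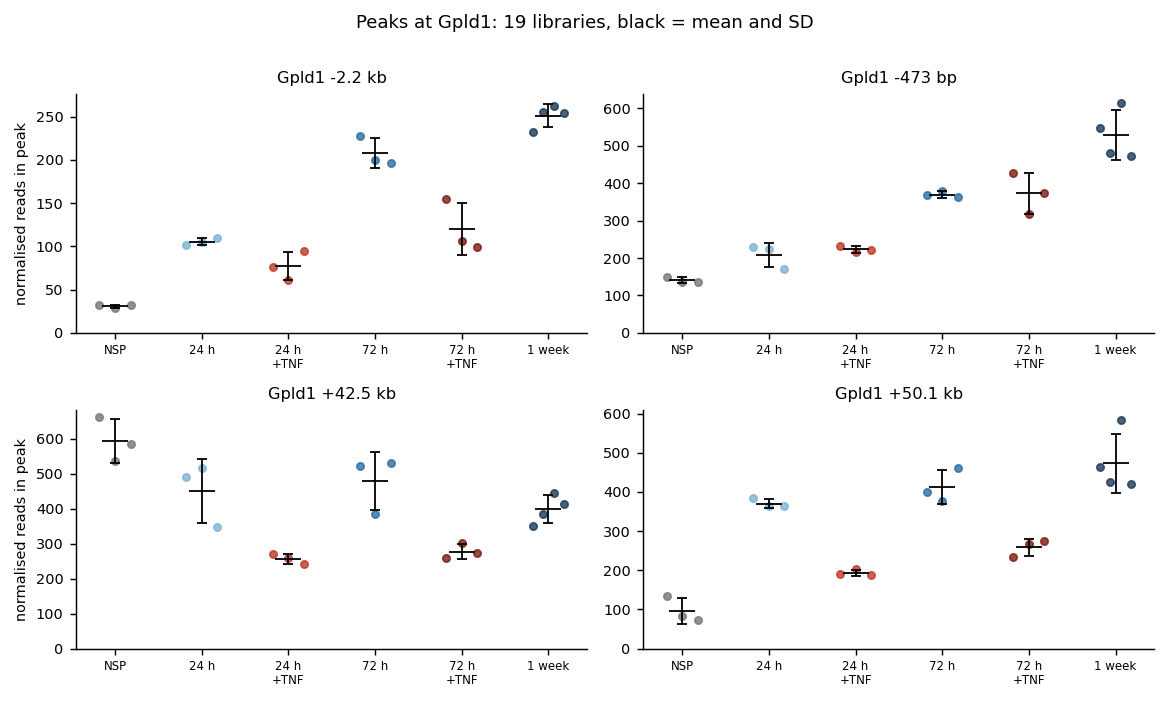
Normalised reads in 4 Gpld1 peaks over the 6 groups, with 1 point for each library and the mean with its SD in black. The peak at -473 bp, the nearest to the start, is alike with and without TNF, and the peaks at +42.5 and +50.1 kb are lower in both TNF groups than in the untreated group of the same time.

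**Figure D5:**
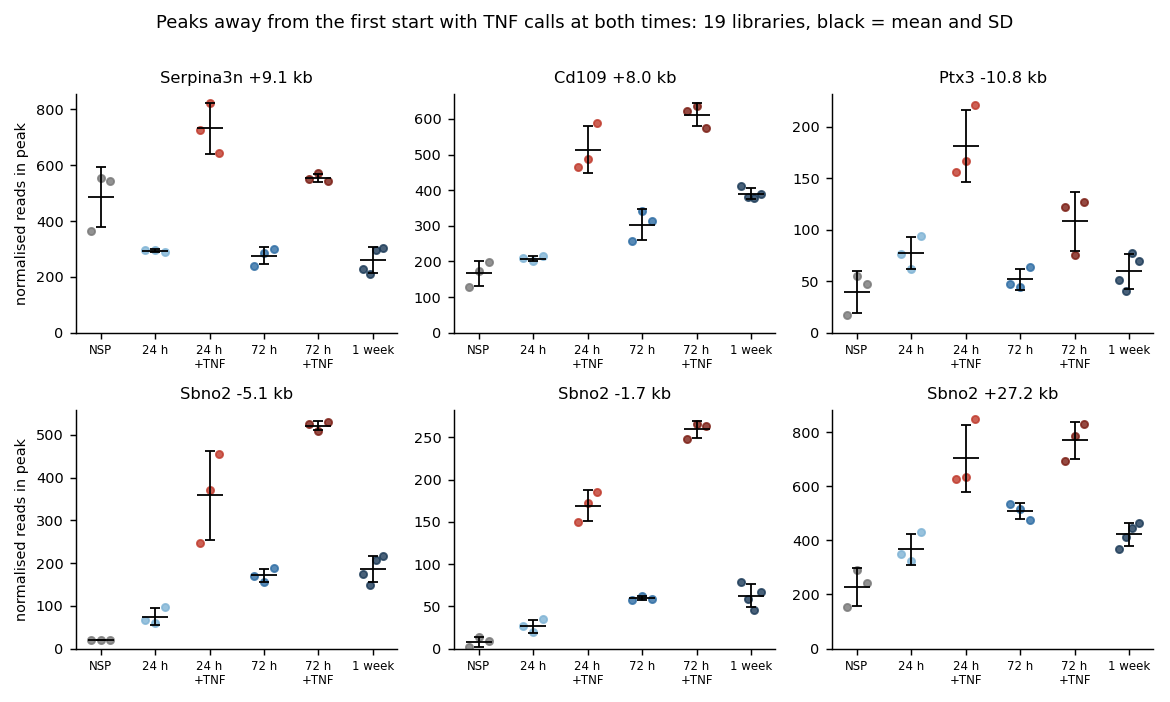
Normalised reads in 6 peaks of Serpina3n, Cd109, Ptx3 and Sbno2 that lie away from the first start and were called higher with TNF at both times, over the 6 groups, with 1 point for each library and the mean with its SD in black. In each panel the TNF libraries lie above the untreated libraries of the same time, and the NSP libraries of Serpina3n +9.1 kb overlap with its 72 h TNF group.

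Over all 57 member peaks, 20 rose and 8 fell from NSPs to 24 h without TNF, and 4 fell when 24 h replicate 1 was left out. These are 35.1% and 14.0% of the members, and 24.2% and 23% of all peaks rose and fell. The median change was 0.10, against -0.07 over all peaks. Under scaling to total reads, which moved the median of all peaks to 0.11, the split was 23 higher and 2 lower. Between NSPs and 72 h, 23 members rose and 10 fell, where 28.3% and 30.9% of all peaks did, scaling to total reads gave 30 and 8 with the median of all peaks at 0.21, and a loess correction gave 24 and 6. Between NSPs and 1 week, 25 rose and 9 fell, where 33.7% and 33.6% of all peaks did. The last pair of comparisons cross the library name tag.

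From 24 h to 72 h, 13 member peaks rose and 3 fell, where 12% and 14.3% of all peaks did, and 8 rose when 72 h replicate 2 was left out. From 72 h to 1 week, 10 rose and 10 fell, where 22.5% and 16.2% of all peaks did. This last split depended on the scaling: it was 3 higher and 22 lower under scaling to total reads, which moved the median of all peaks to -0.31, 7 and 15 under TMM and 1 and 11 after a loess correction. All 10 falls were among the 39 peaks closer to the member than to another gene. They included the start peaks of C3 (-0.85 ± 0.33), Steap4, Serpina3n and Timp1, and the Ptx3 peak at +1.0 kb. After a loess correction the C3 (-0.52), Steap4 (-0.59) and Ptx3 (-0.80) falls were not called. The start peak of Lcn2 had a change of -0.96 ± 0.39 that was not called (limma adjusted p = 0.0524). Of the 18 peaks closer to another gene 6 rose. Among them were Lcn2 -8.4 kb, C3 -19.7 kb and Sbno2 -12.9 kb, whose changes of 0.38, 0.75 and 0.66 turned to -0.14, -0.07 and -0.07 after a loess correction. Lcn2 +5.7 kb rose as well, by 0.37 ± 0.12 (adjusted p = 0.0144), and was not called under scaling to total reads (0.03), TMM (0.26) or a loess correction (0.09).

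The 12 peaks called higher with TNF at both times held a median of 45.8 reads in NSPs, with a range of 7.0 to 559, and the 37 member peaks with no TNF call a median of 106, with a range of 4.01 to 3640. Of the 12, 8 also rose from NSPs to 24 h without TNF and 1 fell, and of the 37 these were 9 and 5, where 24.2% and 23% of all peaks rose and fell. The 12 were picked by their TNF calls. Their medians of 271 and 391 reads at 24 h and 72 h with TNF are raised by that choice. At 1 week without TNF their median was 125 reads. There were 5 of the 12 within 2 kb of an annotated start and 5 inside gene bodies.

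The start peaks of C3, Lcn2 and Steap4 varied together over the 19 libraries. The Pearson r of log2(value + 1) was 0.87 for Lcn2 with C3, 0.87 for Lcn2 with Steap4 and 0.86 for C3 with Steap4. The libraries share their groups, so these values are a description of the group pattern. Ptx3 and Gpld1, whose start peaks moved in opposite directions over time, had an r of -0.87. Among 12980 protein-coding genes with a peak within 1 kb of an end and over 1 Mb away, the pattern of the C3 start was most like that of Sik1 (r = 0.969) and Pcif1 (0.904). Steap4 was most like Tnip1, which encodes an NF-κB inhibitor (0.951), and Hal (0.902), Lcn2 like Spata13 (0.896) and Rnf182 (0.893), and Serpina3n like Pop4 (0.859) and Cdc42ep5 (0.847). Ptx3 was most like Fgd5 (0.948) and Cldn11 (0.942), Timp1 like Slc9a9 (0.913) and Fam189b (0.908), and Gpld1 like 1700007K13Rik and Mrps2 (0.974 in both). For the steady start peaks the highest values were lower, with Lmntd2 and Rassf7 for Cd109 (0.839 in both) and Dusp11 (0.824) and Pinx1 (0.817) for Sbno2.

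A wider list of 38 reactive astrocyte genes, 13 pan-reactive, 13 A1 and 12 A2, was described by the same 20 kb rule. It holds 7 of the 9 members, without Sbno2 and Gpld1, and 37 of its genes had a tested peak. With TNF at 24 h, 25 of the 37 genes (67.6%) had at least 1 peak that rose, against 23.6% of 18119 protein-coding genes, and 8 (21.6%) had one that fell, against 12.7%. At 72 h these were 22 (59.5%, against 21.4%) and 7 (18.9%, against 19%). Without the members, 19 of 30 genes at 24 h and 16 of 30 at 72 h had a peak that rose. In the same 30 genes, 8 (26.7%) at 24 h and 7 (23.3%) at 72 h had a peak that fell. By class, with the members included, 10 of 13 pan-reactive genes, 5 of 12 A1 genes and 10 of 12 A2 genes had a peak that rose at 24 h. At 72 h these were 9, 5 and 8. A peak that fell was found in 3 pan-reactive, 4 A1 and 1 A2 genes at 24 h. At 72 h the falls were in 4, 3 and 0 genes, and of the 52 A1 peaks 6 rose and 6 fell. A gene with more peaks has more chances of a called one, so shares of peaks are given too. Of the 179 peaks of the list, 21.2% rose and 4.47% fell at 24 h, and 16.2% and 6.7% at 72 h. Over the peaks of all protein-coding genes these were 6.71% and 3.19%, and 5.95% and 5.23%. The median TNF change over the 179 peaks was 0.20 at 24 h and 0.16 at 72 h, against -0.02 and 0.04 over the peaks of all protein-coding genes. The classes differ in the number of peaks, from 52 to 65, and the differences between them were not tested.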

How the data were processed

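ATAC-seq had been run on 19 libraries, each from 50000 cells, sequenced as paired ends. The authors used FastQC, Trim Galore, Bowtie2, SAMtools and MACS2 with the mm10 build, per the submitters' processing notes and the methods, and left out mitochondrial reads and blacklisted regions. Versions, duplicate handling and the transposase shift are not given in the sources used here. The deposited table holds a normalised signal for 90154 peaks, 99.7% of them with start and end 500 bp apart. Its normalisation is not given in the sources used here. Every value divided by the smallest one of its library gave a whole number within 0.001, so whole reads were recovered, and the smallest value is 1 read. Depth, as reads in peaks, was 9640256 to 39349111. No depth interval was computed, and precision is given by the spread of the libraries.

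RefSeq genes and promoters of GRCm38.p6 were used, and peak coordinates are printed as the table gives them. Peaks under edgeR's filter (10 reads, 1235 peaks) were left out. The values, log2(value + 1), were tested with limma 3.58.1 (trend) in R 4.3.3, with a mean for each of the 6 groups over all libraries and Benjamini-Hochberg adjustment over 88919 peaks. Since the table holds normalised values, count tests on the recovered reads (edgeR 4.0.16 quasi-likelihood and DESeq2 1.42.0) were alternatives. Other alternatives were scaling, loess correction, pseudocounts of 0.5 and 5, no filter, windows of 5 and 50 kb, replicate blocks, only the groups compared, and leaving out each library. Counts of member peaks closer to the member than to another gene were added after seeing the data. The code was tested on simulated data. For each gene the text gives the peak nearest the start, up to 3 peaks with the smallest adjusted p among TNF calls, and up to 2 further peaks with the smallest p in 24 h against NSPs or 1 week against 72 h, and any other peak given with full values is named as chosen later. The members and lists were chosen with earlier results of these data known.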

Additional observations from a re-analysis of the deposited data

Results flagged for a closer look

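In groups of 4 to 10 libraries, each member peak was checked for a library whose gap to the nearest of the others exceeded Dixon's 95% critical value, and only the 1 week group has 4 libraries. In the C3 -20 bp peak, replicate 4 of 1 week was the lowest, at 19.3 normalised reads, and the others held 28.2 to 28.8. In the Sbno2 +7.7 kb peak, replicate 3 of 1 week was the highest, at 81.4, and the others held 43.2 to 49.3. Chance flags about 1 in 20 groups, and 57 peaks were checked. No other peak of the 57 met the criterion.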

How the results depend on the processing

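Of 297 counts of member peaks under the alternatives, 279 stayed within 1.5 times the value in the report. TNF counts of rising peaks ranged from 13 to 15 at 24 h and 8 to 11 at 72 h when a library was left out, and falling peaks from 2 to 2 and 2 to 3. A 50 kb window gave 4 falling peaks for TNF at 24 h, 5 at 72 h, 21 for 24 h, 26 for 72 h and 17 for 1 week against NSPs, 7 for 72 h against 24 h, and 23 rising for 1 week against 72 h. A 5 kb window gave 6 falling for 72 h against NSPs and 1 for 72 h against 24 h. Peaks closer to the member gave 1 falling with TNF at 24 h. Total-read scaling gave 2 falling for 24 h against NSPs, and 3 rising and 22 falling for 1 week against 72 h. Loess correction gave 6 falling for 72 h against NSPs and 1 rising for 1 week against 72 h. Without a library, falling peaks for 24 h against NSPs ranged from 4 to 9 (lowest without 24 h replicate 1), rising peaks for 72 h against 24 h from 8 to 12, and rising peaks for 1 week against 72 h from 6 to 11 (lowest without 72 h replicate 1). The cause was not tested.

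Of 31 TNF calls on named peaks, 21 held under all 17 alternatives tried on each and 10 were lost under at least 1, with the same direction. Among the TNF changes of named peaks, signs turned only in uncalled ones near 0. At 72 h these were Lcn2 +7.5 kb (-0.02 under total-read scaling), Serpina3n -23 bp (-0.07 total-read, -0.03 TMM and edgeR, -0.01 DESeq2), Cd109 +193 bp (-0.05 total-read, -0.00 TMM, -0.03 loess, -0.06 library-name block, -0.01 edgeR) and Gpld1 -473 bp (-0.07 total-read, -0.02 TMM, -0.04 loess, -0.01 edgeR). Without a library the ranges were Ptx3 +1.0 kb at 24 h -0.22 to 0.01, Cd109 +193 bp at 24 h -0.05 to 0.19, Sbno2 -16 bp at 24 h -0.19 to 0.00, Gpld1 -473 bp at 24 h -0.02 to 0.19, Lcn2 +7.5 kb at 72 h -0.07 to 0.20, Serpina3n -23 bp at 72 h -0.12 to 0.07, Cd109 +193 bp at 72 h -0.06 to 0.14, Sbno2 -16 bp at 72 h -0.17 to 0.00 and Gpld1 -473 bp at 72 h -0.10 to 0.12. Among the called differentiation changes of named peaks, 5 turned after the loess correction: Lcn2 -8.4 kb, C3 -19.7 kb and Sbno2 -12.9 kb for 1 week against 72 h (0.38, 0.75 and 0.66, to -0.14, -0.07 and -0.07), and C3 -19.7 kb (-0.54 to 0.04) and Sbno2 -12.9 kb (-0.31 to 0.20) for 72 h against NSPs.

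The labels do not say whether libraries with the same number are paired, and the correlations below cannot decide it. Deviations from the group mean of same-numbered TNF and untreated libraries correlated at 0.03, 0.03 and 0.11 at 24 h and at 0.01, -0.03 and 0.02 at 72 h, and 3 of the 6 treated libraries correlated best with their own number. By the number in the library name, which pairs 5 of the 6, 4 did, and the pairs at 72 h correlated at 0.03 and 0.02. With the replicate block the TNF counts were 17 rising and 2 falling at 24 h and 12 and 3 at 72 h. With the number in the library name as the block, 8 rose at 72 h, and the Lcn2 -231 bp (1.40), Ptx3 -10.8 kb (0.78), Cd109 +18.6 kb (0.55) and Sbno2 +27.2 kb (0.47) calls at 72 h were lost.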
